A study of Drosophila melanogaster with 4 samples.

Results

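Syp, Imp, chinmo and brat, genes that time the growth of neural progenitors in the fly, were examined in BG3 cells, a cultured Drosophila melanogaster line from the larval brain. The 4 genes were picked by symbol from a table of 8806 genes and transposable element families, by a rule that uses no measured value. Rows were found for 3 of the 4, Syp, Imp and brat, and all 3 passed the minimum for testing. No row was matched to chinmo by symbol or synonym, so its level and its response were not analysed here. The smallest row total over the 4 libraries was 9.9 reads after scaling by library. Whether chinmo fell below that was not tested. The control cells received dsRNA against Brown, an eye pigment gene, and carried the label WT. The knockdown cells received dsRNA against Cap-H2, a subunit of the chromosome-compacting complex condensin II. Both groups were exposed to 20 µg of dsRNA, kept for 4 days in medium with serum and insulin, and sampled as 2 libraries each. All 4 libraries come from 1 line, and nothing in the labels says whether libraries of a group were separate cultures. The p-values therefore measure the spread between these libraries, which may be technical. The spread used for each gene came mostly from the trend over all rows (prior of 14.4 against 2 residual degrees of freedom).

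Neuroblasts, the stem cells of the fly nervous system, change the neurons they make as they age. Part of this clock is a pair of opposing RNA-binding proteins. Imp, the fly member of the IGF2 mRNA-binding protein family, is high in young neuroblasts, and Syp, a relative of mammalian hnRNP Q, is high in old ones. Each restrains the other, and chinmo, a BTB zinc finger transcription factor of early-born neurons, is promoted by Imp and repressed by Syp. Brat, a TRIM-NHL translational repressor, is inherited by the neuroblast daughter that stops self-renewing, and its loss in larval brains gives tumours of neuroblasts.

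The libraries held between 21335693 and 22095343 normalized reads on genes and element families, where a normalized read is a read count scaled by 1 factor per library by the authors. Cap-H2, the knockdown target, fell to 62.7% of its control level (95% interval 57.3% to 68.6%), with normalized reads of 876 ± 4.53 in the control against 549 ± 8.42 (SD, n = 2 in either group, limma's adjusted p = 1.5e-05). Across all 7690 tested rows 30 passed limma at an adjusted p of 0.05, which is 0.39% of them, with 0.325% higher and 0.065% lower. Of the 3 measured member genes 0 passed and 0 had an unadjusted p under 0.05, a level that 8.13% of all tested rows reached.

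Syp was the most abundant of the member genes. Control libraries 1 and 2 held 20357 and 19585 normalized reads of it, and knockdown libraries 1 and 2 held 19444 and 20619. The highest and the lowest value were both knockdown libraries, so the groups overlapped. For Imp the control libraries held 6815 and 6492 normalized reads, and the knockdown libraries held 6823 and 7029. Knockdown library 1 exceeded control library 1 by a few reads, and the groups did not overlap. For brat the values were 5299 and 5274 normalized reads without knockdown, against 5335 and 5442 with it. Both knockdown libraries were again above both control libraries, a pattern that 19.2% of all tested rows showed. In the opposite direction the groups were separate for 19.5% of tested rows, and in either direction for 38.7%.

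Levels were compared between genes per kilobase (kb) of merged annotated exon, which is 11225 bp for Syp, 13650 bp for Imp and 12788 bp for brat. On this scale Syp stood at 1779 ± 48.6 normalized reads per kb in control cells and at 1785 ± 74.0 in knockdown cells (SD over 2 libraries). Imp stood at 487 ± 16.7 and 507 ± 10.6, and brat at 413 ± 1.39 and 421 ± 5.93. Of the 7582 tested rows with a length, 91.7% had a lower level per kb than Syp, 65.7% a lower level than Imp and 59.7% a lower level than brat. The median over those rows was 318 normalized reads per kb, below all 3 genes.

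**Figure D1:**
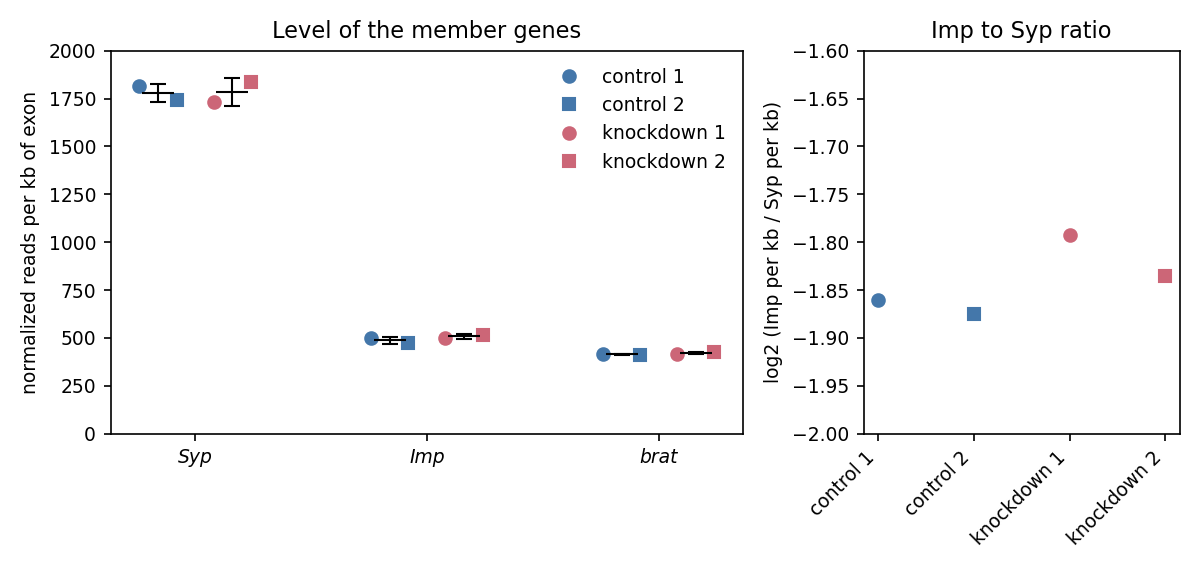
Left, normalized reads per kb of exon of Syp, Imp and brat in each library (blue control, red knockdown, circles replicate 1, squares replicate 2), with the group mean and SD in black (n = 2 each). Right, the log2 ratio of Imp to Syp per kb in each library, on an axis that does not start at 0. Syp lies between 1732 and 1837 in all 4 libraries, far above Imp and brat, and both knockdown ratios lie above both control ratios.

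The order Syp, Imp, brat was the same in each of the 4 libraries. Syp exceeded Imp per kb by 3.47-fold to 3.67-fold (mean 3.58 ± 0.089, SD, n = 4). Imp exceeded brat by 1.15-fold to 1.21-fold per kb (mean 1.19 ± 0.026, SD, n = 4), and the lowest Imp value, 476 normalized reads per kb, was above the highest brat value, 426. Merged exons count every annotated isoform, 20 transcripts for Syp, 12 for Imp and 5 for brat. Which isoforms the cells used was not resolved, so a difference as small as that between Imp and brat depends on the length taken.

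The genes lie on separate chromosome arms except for chinmo and brat. In dm6 coordinates Syp (FBgn0038826) spans chromosome 3R from 20756729 to 20810726 on the plus strand, and Imp (FBgn0285926) spans chromosome X from 10787869 to 10824277 on the minus strand. Brat (FBgn0010300) spans chromosome 2L from 19133816 to 19179758 on the plus strand, and chinmo (FBgn0086758) spans chromosome 2L from 1651258 to 1704682 on the plus strand. Exons of Syp overlap no other annotated exon. Exons of Imp share 1955 bp with long noncoding RNAs on the same strand and 9 bp on the opposite strand, 14.4% of their length, and reads there may have been counted as ambiguous. Exons of brat share 151 bp, 1.18% of their length, with genes on the opposite strand.

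The question put to the member genes was whether Cap-H2 knockdown moved them, and for none of the 3 was a difference from the control detected. Imp differed by 0.058 on the log2 scale, knockdown minus control (SE 0.034, limma's adjusted p = 0.68), that is 104% of the control with a 95% interval from 99.1% to 109%. Brat differed by 0.028 (SE 0.032, adjusted p = 0.87), with an interval from 97.2% to 107% of the control. Syp had 0.0040 (SE 0.032, adjusted p = 0.99), with an interval from 95.6% to 105%. At the depth of these genes the intervals leave room for shifts of several percent and are far from the reduction of Cap-H2 itself.

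The spread between replicates exceeded the difference between the groups in both groups for Syp, and in 1 of the 2 groups for Imp and brat. For Syp the step from library 1 to library 2 was -0.056 on the log2 scale among control libraries and 0.085 among knockdown libraries. For Imp these steps were -0.070 and 0.043, and for brat -0.0068 and 0.029. Among the 684 tested rows with a mean of at least 5000 normalized reads, the median absolute log2 fold change was 0.029 and the median SE 0.031, so brat lay at the middle of its abundance class and Imp above it. Leaving out a library gave Imp values from 0.023 (without control library 2) to 0.093 (without control library 1). Brat values ran from 0.013 (without knockdown library 2) to 0.042 (without knockdown library 1). The sign of Syp turned without control library 2 (-0.024) and without knockdown library 2 (-0.038).

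**Figure D2:**
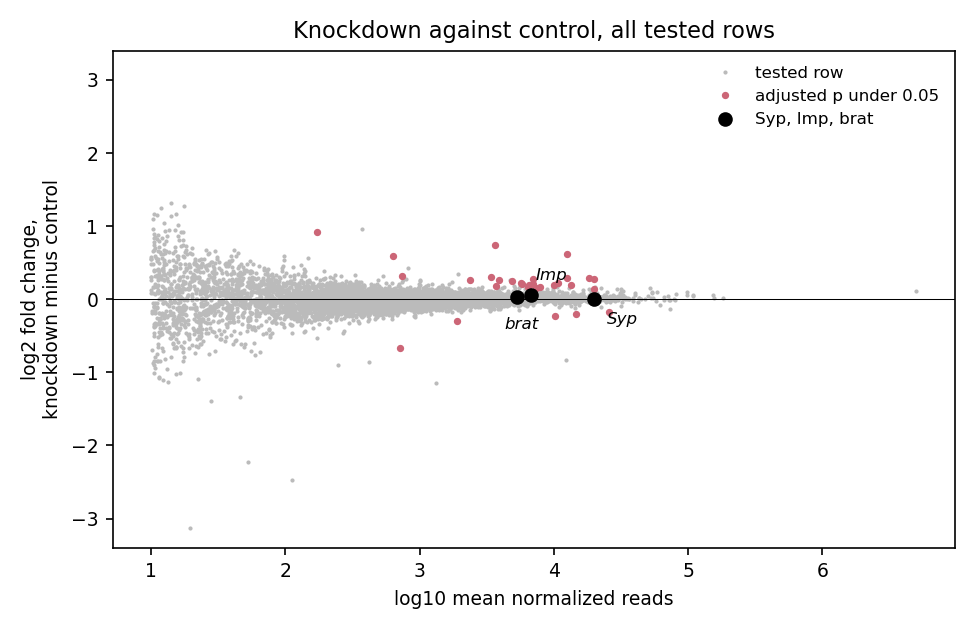
Log2 fold change of all 7690 tested rows (vertical axis, knockdown minus control) against the log10 of their mean normalized reads, with rows past the limma threshold in red and Syp, Imp and brat in black. The 3 genes lie at 0.0040, 0.058 and 0.028, inside the grey band of rows at their abundance.

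Because Imp and Syp oppose each other, their ratio within a library is a summary that library scaling cannot shift. The log2 ratio of Imp to Syp per kb was -1.86 and -1.88 for control libraries 1 and 2, against -1.79 and -1.83 for the knockdown libraries. The knockdown ratios were higher by 0.054 on average, at -1.81 ± 0.030 against -1.87 ± 0.010 (SD over 2 libraries). The groups did not overlap, but the exact two-sided permutation test gave p = 0.333, the smallest that 2 against 2 libraries allow. Leaving out each library in turn gave differences from 0.033 to 0.075.

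The authors' deposited table gives log2 fold changes of 0.0015 for Imp, 0.00044 for brat and 6.3e-05 for Syp. The authors' deposited table gives unadjusted p-values of 0.186, 0.532 and 0.910 for these genes, and an adjusted p of 0.999 for each. For Syp, Imp and brat these fold changes are much nearer 0 than the ratios of group means and are not set against those above. For Cap-H2 the deposited log2 fold change is -0.64, and limma gave -0.67 here. Why the deposited values of Syp, Imp and brat lie nearer 0 was not tested.

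Of a list of 11 postembryonic temporal regulators and other genes set around Imp, Syp and chinmo, 8 were tested and 0 passed limma, while no row was matched to svp, lin-28 or let-7-C. Levels per kb ran from 134 to 1544 normalized reads. Dlp, and mamo and ab, named after their values were seen, lay below the median of all tested rows with a length, and the other 5 above it. Br, a BTB factor of the ecdysone response that marks metamorphic stages, stood highest at 1544 ± 69.1 normalized reads per kb (SD over the 4 libraries), below Syp. Myc, a driver of cell growth, stood at 1052 ± 47.4. In the list 4 of 8 tested genes had an unadjusted p under 0.05, against 8.13% of all tested rows, and 2 of 8 without knockdown library 2. A positive log2 fold change was found for 6 of 8, against 49.9% of all tested rows, and the median was 0.068 against -0.00014. The list was chosen with earlier results of these data known, so these counts are no test of it. Over all 64 tested genes of the 8 gene lists used here, 7.81% had an unadjusted p under 0.05.

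Dlp, a cell surface glypican, had the smallest p of that list. It had 938 and 910 normalized reads in control cells and 1102 and 1035 in knockdown cells, a difference of 0.21 on the log2 scale (SE 0.055, limma's adjusted p = 0.18). The groups did not overlap, and the values from leaving out a library ran from 0.16 to 0.25. Myc had 9376 and 9256 normalized reads in control cells and 9716 and 10227 in knockdown cells (log2 fold change 0.098, SE 0.032, adjusted p = 0.34, and 0.061 without knockdown library 2). Both knockdown libraries of Myc exceeded both control libraries, as for 5 of the 8 tested genes of the list, against 19.2% of all tested rows. That count is no test of the list either. Eip93F, a factor of late stages named after its values were seen, had 0.12 (SE 0.039, adjusted p = 0.37). Without control library 1 it passed at 0.18 (adjusted p = 0.0013), and without control library 2 it stood at 0.047 (adjusted p = 0.79).

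Of 8 factors that time embryonic neuroblasts, only 2 could be given a level. No row was matched to 6 (hb, Kr, nub, pdm2, dan and danr), which were not analysed here. Cas and grh, the last factors of that series, had between 1.00 and 6.09 normalized reads per library and fell under the minimum mean of 10, so none was tested. Of 12 factors that time optic lobe neuroblasts, 5 had a row and 2 were tested. Hth, a homeodomain factor of the youngest optic lobe neuroblasts, stood out from the rest at 470 ± 12.6 normalized reads per kb, a level whose range overlapped that of Imp. Ey, the factor that follows it, stood at 5.85 ± 1.25. Between the groups hth differed by 0.056 on the log2 scale (SE 0.033, adjusted p = 0.69), and ey, with 17.7 to 28.4 normalized reads per library, had 0.29 (SE 0.34, adjusted p = 0.86). With 1 library left out, hth ran from 0.031 (without control library 2) to 0.081 (without control library 1). Ey ran from 0.046 (without knockdown library 2) to 0.54 (without knockdown library 1).

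**Figure D3:**
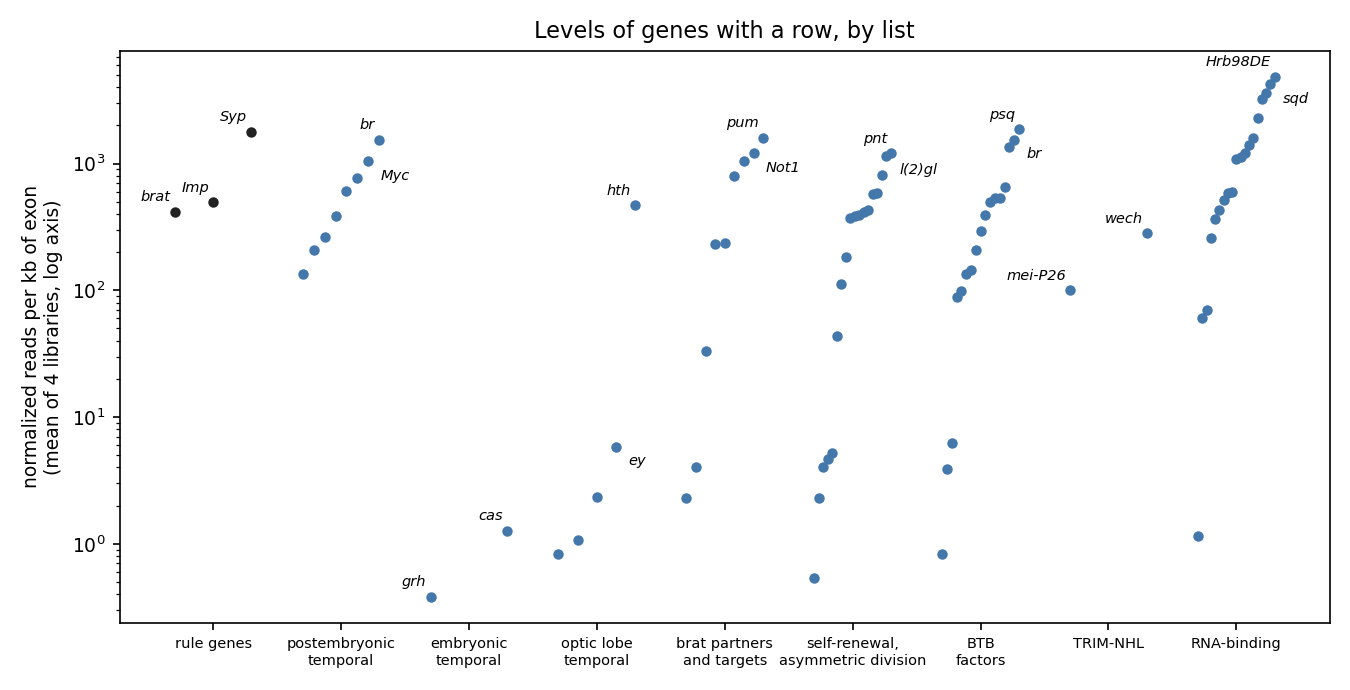
Normalized reads per kb of exon (mean of 4 libraries, log axis) of the genes with a row, by list, each point 1 gene and the most abundant ones named. Syp, Imp and brat are in black. The embryonic temporal factors cas and grh lie near 1 normalized read per kb or lower, while the 8 postembryonic genes lie between 134 and 1544.

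Brat represses its targets with Pum, a sequence-specific RNA-binding protein, and with the CCR4-NOT deadenylase. Pum stood at 1597 ± 25.5 normalized reads per kb (SD over 4 libraries) and Not1, the scaffold of the deadenylase, at 1217 ± 23.9. Both were above brat itself in each library. Of the 11 genes of this list 8 were tested, 0 passed limma and 1, Myc, had an unadjusted p under 0.05. The median log2 fold change was 0.0015, and eIF4EHP, a cap-binding repressor, had 0.060 (SE 0.055, adjusted p = 0.82), from -0.018 without knockdown library 2 to 0.14 without knockdown library 1. Reported targets that mark neuroblasts were low. Dpn had between 3.05 and 14.0 normalized reads per library, and klu stood at 2.29 normalized reads per kb.

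Levels of the genes of self-renewal and asymmetric division ran from 0.541 to 1213 normalized reads per kb among those tested. No row was matched to wor or ase, which mark neuroblasts, or to esg, sna, ham, btd and E(spl)m8-HLH. The highest were pnt, an Ets factor, at 1213 ± 19.2 normalized reads per kb and l(2)gl, a polarity tumour suppressor, at 1154 ± 25.8. The other tested genes lay on both sides of the median of all tested rows with a length. Baz at 112, numb at 182 and insc at 43.3 normalized reads per kb lay below it, as did mira, pros and klu. Pins at 815, N at 582, par-6 at 577 and cnk at 428 lay above it, as did aPKC, lola, scrib and dlg1. Baz, numb, pros, klu, pins, N, par-6, cnk, aPKC and dlg1 were named after their values were seen. Of 25 genes 16 were tested, 0 passed limma, 0 had an unadjusted p under 0.05, and the median log2 fold change was 0.032. The smallest p-values were those of lola (0.056, SE 0.032, adjusted p = 0.68), a BTB factor that keeps neurons differentiated, and scrib (0.049, SE 0.033, adjusted p = 0.73), a polarity scaffold. Both ran lowest without knockdown library 2, at 0.019 for lola and 0.019 for scrib, and highest without knockdown library 1, at 0.093 and 0.080.

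In the wider families of the members no change was detected either. Among RNA-binding protein genes, the family of Syp and Imp in a broad sense, Hrb98DE and sqd, both hnRNP genes, led at 4848 ± 121 and 4211 ± 92.3 normalized reads per kb, above Syp. Of 22 genes 18 were tested, 0 passed limma and 1 had an unadjusted p under 0.05, with a median log2 fold change of 0.032. That gene was larp, a La-related regulator of translation, with 8519 and 10084 normalized reads in control cells and 9685 and 11233 in knockdown cells (log2 fold change 0.17, SE 0.063, adjusted p = 0.48). Library 2 was above library 1 in both groups, and larp passed without control library 2 (0.29, adjusted p = 2.6e-11) and without knockdown library 1 (0.28, adjusted p = 0.00059). Its lowest value over these settings was 0.049, with control library 1 left out. Hrb98DE had 0.055 (SE 0.029, adjusted p = 0.65), and 0.033 without control library 1.

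Of 18 genes listed as BTB factors, the family of chinmo, 17 were tested, 0 passed limma and 1, br, had an unadjusted p under 0.05. The median log2 fold change was -0.015. Psq, a chromatin-associated BTB factor, led at 1873 ± 31.5 normalized reads per kb, followed by br. The smallest p-values were those of br (0.082, SE 0.032, adjusted p = 0.52) and topi (-0.19, SE 0.10, adjusted p = 0.66), a zinc finger gene of testis meiosis whose BTB domain was not checked. Br ran from 0.031 without knockdown library 2 to 0.13 without knockdown library 1. The TRIM-NHL relatives of brat, mei-P26, which limits germline stem cell growth, and wech, which links integrins to the cytoskeleton, had log2 fold changes of 0.087 (SE 0.042) and 0.085 (SE 0.044), with adjusted p of 0.62 and 0.65. Without knockdown library 2 they were 0.046 and 0.031, and without knockdown library 1 they were 0.13 and 0.14. Wech stood at 282 ± 13.5 and mei-P26 at 100 ± 4.36 normalized reads per kb, both below brat.

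**Figure D4:**
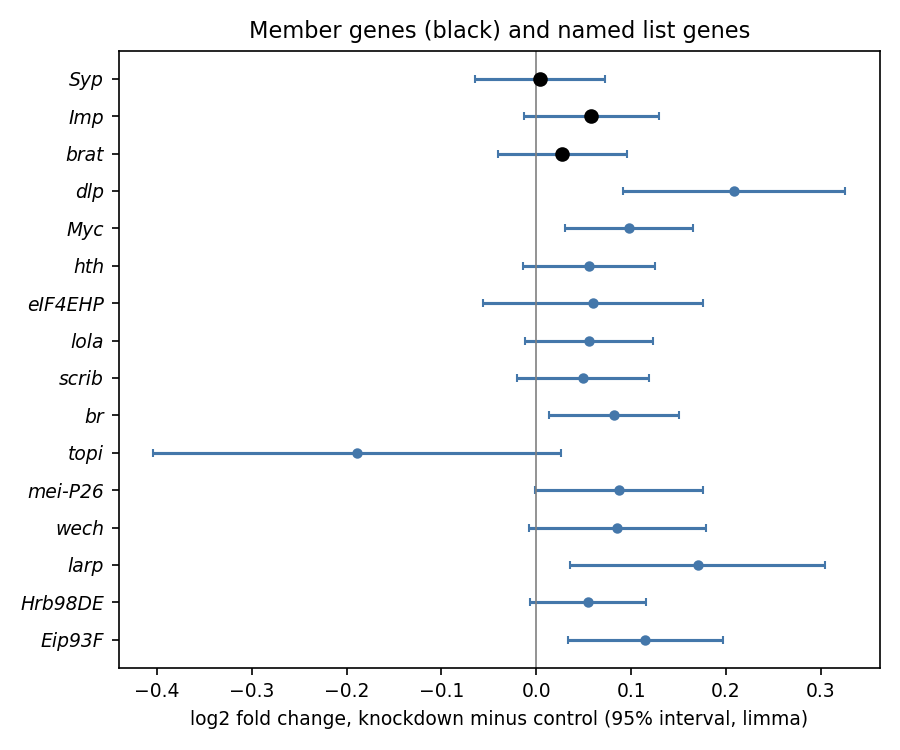
Log2 fold change, knockdown minus control, with limma's 95% interval, for Syp, Imp and brat (black) and for some named list genes (blue). The blue genes are those with the smallest p in each list, and Eip93F, named after its values were seen. Ey is left out for its wide interval. The other named list genes, pum, pnt, psq and sqd among them, are not drawn, so the blue genes do not stand for the lists as a whole. The intervals of Syp, Imp and brat cross 0, and dlp has the highest value at 0.21.

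Over the 8 lists together, 101 distinct genes, 72 had a row and 64 were tested. Of these 0 passed limma, the smallest adjusted p was 0.18, and 5 had an unadjusted p under 0.05, which is 7.81% against 8.13% of all tested rows. A positive log2 fold change was found for 45 of the 64 (70.3%), with a median of 0.033, against 49.9% and a median of -0.00014 over all tested rows. Since the lists were chosen with earlier results of these data known, these shares are no test of them.

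Genes with the pattern nearest to each member were found by the root mean square distance between centred log2 profiles over the 4 libraries, among 6825 other rows with a mean of at least 50. Nearest to Syp were Mpv17 and SCAR, at distances of 0.0038 and 0.0063 on the log2 scale. Nearest to Imp were sud1 and smg at 0.0028 and 0.0054, and nearest to brat were tral and garz at 0.0022 and 0.0025. With only 4 libraries such likeness is common, since 607 rows lay within 0.03 of Syp, 542 of Imp and 1346 of brat.

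The label of the line as larval brain was set against markers. Of 6 neuroblast markers 4 had a row, summing to between 192 and 206 normalized reads in the control and between 206 and 225 in the knockdown. Most of these were of insc, at 43.3 ± 3.21 normalized reads per kb, followed by mira at 5.20 ± 1.48. Of 9 neuronal markers 6 had a row, with sums from 787 to 828 and from 823 to 832, led by elav at 52.1 ± 1.79 and futsch at 10.2 ± 0.317 normalized reads per kb. The other 4, nSyb, brp, Rbp9 and Appl, had between 1.97 and 12.2 normalized reads per library and fell under the minimum for testing. No row was matched to Syt1, para and fne. Of 8 glial markers 7 had a row, with sums from 15575 to 15734 and from 15579 to 15662. Moody and nrv2, surface glia genes, led these at 1358 ± 52.5 and 948 ± 26.04 normalized reads per kb, followed by loco at 871 ± 16.9. The rest were low. Repo, the glial master factor, had between 76.0 and 90.5 normalized reads per library, Gs2 between 91.0 and 123, Eaat1 between 17.9 and 29.5 and wrapper between 9.84 and 21.0. No row was matched to wor and ase, and dpn had at most 14.0 normalized reads in a library, while no library had fewer than 5274 of Syp, Imp or brat.

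Some markers of other cell types were also present. Of 8 blood cell markers 7 had a row, with sums from 97552 to 99828 normalized reads in the control and from 88095 to 95677 in the knockdown. Ppn, a matrix protein gene, at 7666 ± 538, and drpr, an engulfment receptor gene also used by glia, at 1944 ± 58.4 normalized reads per kb led them. Srp stood at 1044 ± 33.9 and ush at 869 ± 10.7 normalized reads per kb. Pxn at 114 ± 5.56 and Hml at 23.1 ± 4.52 were lower, and NimC1 had at most 7.87 normalized reads in a library. The 5 epithelial markers summed to between 3574 and 3599 in the control and between 3618 and 3652 in the knockdown, led by shg at 358 ± 13.3 and sdt at 94.6 ± 6.43 normalized reads per kb. Fas3 at 24.2 and crb at 13.8 normalized reads per kb were lower, and grh had at most 5.08 normalized reads in a library. Of 5 muscle markers 4 had a row, with sums from 7244 to 7721 and from 7058 to 7416, led by Act57B at 2593 ± 180 and Mef2 at 310 ± 6.87 normalized reads per kb. The others were low. Mhc had between 9.14 and 12.0 normalized reads per library and sls between 17.7 and 33.5, and no row was matched to twi. The lower blood cell sum of the knockdown libraries rests on Ppn. Without it the other 6 summed to 22114 and 21977 normalized reads in the control libraries, against 22131 and 22260. Among those, Hml had 339 and 287 normalized reads in the control libraries against 221 and 239 (log2 fold change -0.44, limma's adjusted p = 0.10). Of the 6 tested blood cell markers 4 had a negative log2 fold change, Ppn, Hml, Pxn and srp, and 2 a positive one, drpr and ush. The higher epithelial sum rests on shg, and the other 4 summed to 1374 and 1363 normalized reads in the control libraries, against 1258 and 1284. The part of these markers in the values above was not tested. In bulk RNA fewer cells of a type and less RNA per cell cannot be told apart.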

How the data were processed

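RNA was sequenced from BG3 cells in 2 control and 2 knockdown libraries. Reads were processed with fastp, HISAT2 and HTSeq on dm6, per the submitters' processing notes; for the tool versions, the annotation and the strand setting, the sources used here say nothing. The authors deposited normalized counts, a signal of reads per gene scaled by 1 factor per library. The authors also deposited log2 fold changes and p-values. The 3 special rows of HTSeq (11.5% to 13.9% of each library) were left out.

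Gene names were looked up in the Ensembl annotation BDGP6 6.54, which uses dm6 coordinates, with 8649 matched by symbol, 37 by synonym and 120, element families included, unmatched. The rows HB and L were not taken for hb and Oaz. Levels per kb used merged exons. limma 3.58.1 in R 4.3.3 (mean trend, two-sided) was fitted to log2(normalized count + 1) of the 7690 rows whose mean reached 10, with Benjamini-Hochberg adjustment over them. This scale understates the change of low genes. The fit had 2 residual degrees of freedom and a prior of 14.4. It was also run on simulated data whose changes were larger than those of the members. That run does not bear on shifts as small as theirs.

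Members and lists were chosen with earlier results of these data known. Named were the members, Cap-H2, in each list the 2 genes with the smallest p and the 2 with the highest level per kb, in each marker list the latter, and the 2 nearest patterns per member. Further list and marker genes were named after their values were seen. No sequences were used here.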

Additional observations from a re-analysis of the deposited data

How the results depend on the processing

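Alternatives were pseudocounts of 0.5 and 5, no minimum, a minimum mean of 50, TMM factors, median centring, a replicate block and leaving out each library. The planned count models on whole reads were not run. Syp, Imp and brat did not pass under any of the 11 alternatives run, with limma adjusted p from 0.80 to 0.99 for Syp, from 0.49 to 0.98 for Imp and from 0.79 to 1.00 for brat. Leaving out a library gave Syp log2 fold changes from -0.038 to 0.046, eIF4EHP from -0.018 to 0.14, and between 43 and 127 called rows overall. It called 0 or 1 list gene, namely Eip93F without control library 1 and larp without control library 2 or knockdown library 1. In those fits the spread of the group left with 1 library is taken from the other group, and p rests mostly on limma's prior. With the replicate block 146 rows passed, among them all 30, and 3 list genes (Eip93F, dlp and larp). Replicate numbers were not shown to pair the libraries: library 1 minus library 2 in the control and in the knockdown correlated at -0.0271 over tested rows. With 2 libraries a group, small shifts of the members could not be resolved. The cause of these differences was not tested.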
